A study of Mus musculus and Homo sapiens with 22 samples.

Results

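Genes with a PROX1 promoter peak in normal mouse liver were compared, gene by gene, with those in Hep3B, a human cell line established from hepatocellular carcinoma. Members were chosen by measured summits. A gene counted as bound when the summit of a peak lay within 1 kb of the transcription start site (TSS) of one of its protein-coding transcripts, and mouse and human genes were paired when their symbols were identical apart from case. Of 15738 paired genes, 9219 were bound in at least 1 of the 2 lists. Liver bound 5125 of them (32.6%) and Hep3B 7690 (48.9%). Both lists held 3596 genes (22.8%), liver alone 1529 (9.72%), Hep3B alone 4094 (26%) and neither 6519. These classes are the selection itself and are given as a description. Any TSS of a gene counted, so the 2 peaks of a shared gene need not lie at matching TSSs.

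Binding was profiled by CUT&RUN. An antibody tethers a nuclease to a chromatin protein, and the DNA cut free around it is sequenced. There were 22 samples in 6 groups. Liver nuclei came from wildtype C57BL/6J mice of 2 to 3 months and were profiled with an antibody against PROX1 itself in 5 samples and with IgG in 5. Hep3B cells were transduced with a pLIX-Puro-hsPROX1 lentivirus, selected with puromycin and given 2 µg/ml doxycycline for 2 days before profiling with anti-FLAG (3 samples) or IgG (3). Mouse embryonic fibroblasts (MEFs) from wild-type C57BL/6N embryos, with FUW-rtTA and tetO-FLAG-mmProx1 induced for 2 days at the same doxycycline dose, had 3 FLAG and 3 IgG samples. Each peak list is 1 consensus over a group's antibody samples, so sequencing depth per sample is unknown and no spread between animals or cultures can be given. All intervals below are 95% Wilson intervals over genes. They cover counting error alone, and genes are not replicates. Species, tissue, antibody and the origin of the factor all change between the liver and Hep3B lists and cannot be told apart.

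PROX1 is a homeodomain transcription factor that in hepatocytes is mostly known as a repressor and as a partner of nuclear receptors such as HNF4A and NR5A2. The study describes it as mainly an activator in neural stem cells and lymphatic endothelial cells. Hepatocytes secrete most plasma proteins and carry out bile acid synthesis, urea production, detoxification and much of lipid and sugar metabolism. Hepatocellular carcinoma cells lose part of this programme to varying degrees. Gene lists for these functions, for regulators of growth and fate, and for housekeeping complexes present in all cells were written from general knowledge. They were written with earlier results of these data known. Some genes stand in more than 1 list. Gene symbols are given in their human form unless a mouse sequence is meant.

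Examples of the DNA under the summits are given first. Below are 101 bp windows around liver summits of 3 liver-function genes bound only in liver, taken from a set of 5 with strong liver peaks that MEFs did not bind and whose windows hold no annotated exon. They lie at chr3:83050810-83050910 (Fgb, fibrinogen beta chain), chr9:46235772-46235872 (Apoc3, an apolipoprotein of triglyceride-rich particles) and chr19:46673305-46673405 (Cyp17a1, a steroid hydroxylase) of mm10. Each is read 5′ to 3′ on the gene's strand, the minus strand, and capitals mark AGGTCA or its reverse complement, the core motif that many nuclear receptors recognise.
Fgb: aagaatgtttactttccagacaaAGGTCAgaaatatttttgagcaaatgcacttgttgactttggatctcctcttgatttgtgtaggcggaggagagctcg
Apoc3: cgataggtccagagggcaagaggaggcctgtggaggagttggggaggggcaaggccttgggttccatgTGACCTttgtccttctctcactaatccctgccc
Cyp17a1: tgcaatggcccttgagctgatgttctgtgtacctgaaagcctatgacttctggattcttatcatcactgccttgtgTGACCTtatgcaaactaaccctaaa
Each window held 1 such motif, and CG dinucleotides numbered 2, 1 and 0. The windows of Prlr and Crp, which complete the 5, held no such motif and no CG, so the motif is not common to all. The Fgb summit lay 997 bp from the TSS, near the limit of the window, and those of Apoc3 and Cyp17a1 lay 186 and 183 bp away. All 3 windows are upstream of the gene.

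Genes bound in both lists are shown next, again with windows free of annotated exons and with capitals now marking CG dinucleotides. NQO2, a quinone reductase of the drug metabolism list, is shown at chr13:33966279-33966379 of mm10 and chr6:2999752-2999852 of hg38. MAPK14, the stress kinase p38-alpha, is shown at chr17:28690969-28691069 of mm10 and chr6:36027592-36027692 of hg38. All 4 are read on the plus strand, which is the strand of the gene. The MAPK14 windows lie upstream of the gene, and those of NQO2 lie upstream of an internal TSS, inside introns of longer transcripts.
Nqo2: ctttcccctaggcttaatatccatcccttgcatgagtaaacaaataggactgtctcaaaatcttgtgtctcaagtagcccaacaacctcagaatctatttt
NQO2: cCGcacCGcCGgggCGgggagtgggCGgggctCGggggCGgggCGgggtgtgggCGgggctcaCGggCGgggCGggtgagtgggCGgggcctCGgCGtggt
Mapk14: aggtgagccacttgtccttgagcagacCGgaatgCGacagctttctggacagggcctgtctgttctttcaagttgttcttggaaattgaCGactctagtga
MAPK14: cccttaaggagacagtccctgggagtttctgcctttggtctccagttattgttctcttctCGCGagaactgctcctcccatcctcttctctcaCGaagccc
None of these windows held AGGTCA on either strand. CG dinucleotides numbered 0 in mouse and 15 in human at NQO2, and 3 in each species at MAPK14. The peaks had a summit −log10 p of 23.1 in liver and 8.8 in Hep3B at NQO2, and of 20.4 and 8.88 at MAPK14. Summit −log10 p is the peak caller's own value. It is not normalized between lists, and ranks peaks only within a list.

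The fraction of liver-bound genes shared with Hep3B is given by gene list as a description, since the classes were made from the same summits. Hepatocyte transcription factors, nuclear receptors, lipid and cholesterol synthesis, iron handling and the circadian clock were kept apart from the liver-function lists. The liver-function lists numbered 11 and held 335 paired genes, of which 280 were bound in liver. Hep3B also bound 106 of these 280 (37.9%, interval 32.4 to 43.7). Among all liver-bound genes the share was 70.2% (68.9 to 71.4), and among those outside the liver-function lists it was 72.0% (70.8 to 73.3). Housekeeping lists lay at the other end, with 148 of 164 (90.2%, 84.7 to 93.9). A further 21 liver-function genes were bound only in Hep3B and 34 in neither list. Hep3B peaks start at a lower area under the significance curve than liver peaks, 200 against 500. With Hep3B peaks held to the liver floor the shares were 21.8% for liver-function genes, 46.3% for all and 58.5% for housekeeping genes. With the top 14369 peaks of each list, which keeps every Hep3B peak, 492 genes were shared and 417 were bound only in liver, and the fraction was 29.9% for liver-function genes and 54.1% for all.

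**Figure D1:**
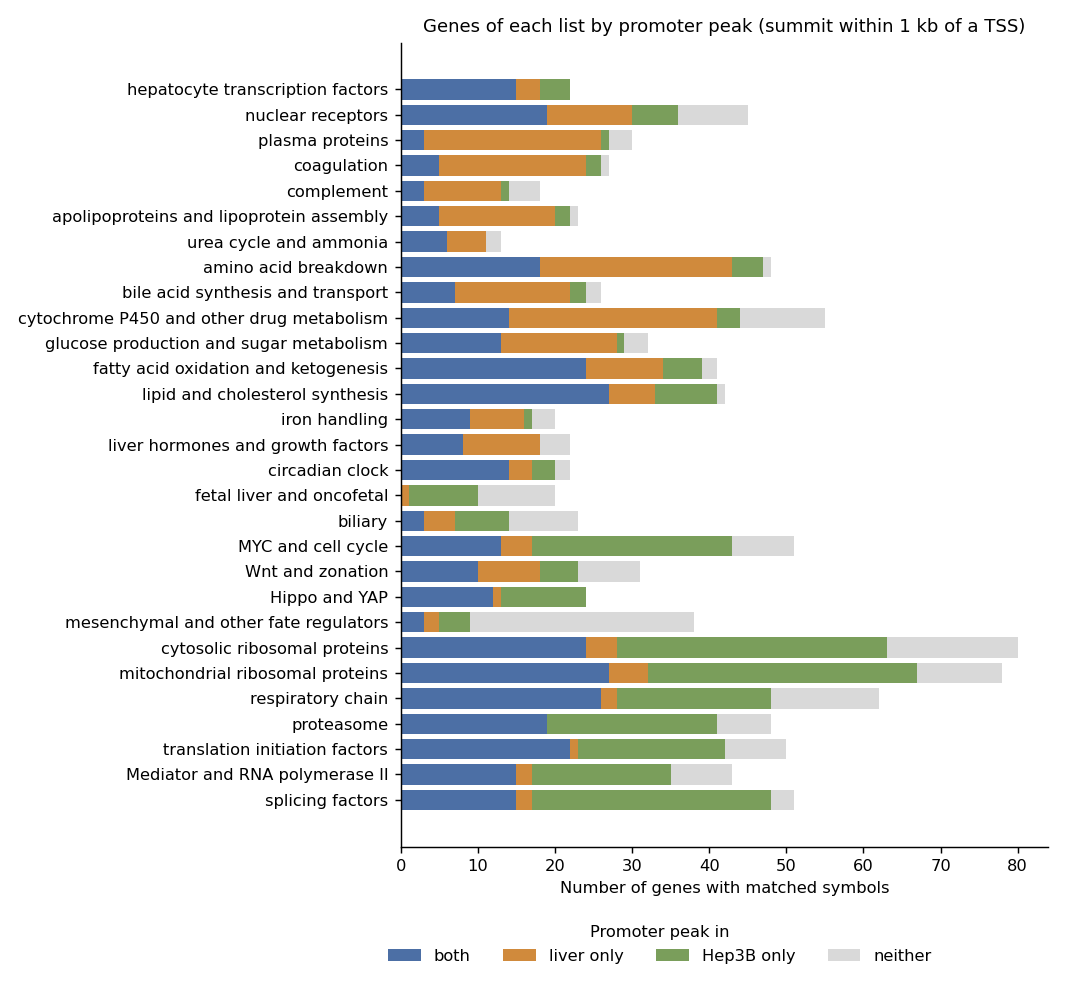
Number of paired genes (x axis) in each gene list (y axis), split by whether a promoter peak was found in both liver and Hep3B, liver only, Hep3B only or neither. Plasma proteins, coagulation and apolipoproteins are mostly liver only (23 of 30, 19 of 27 and 15 of 23 genes), and cell cycle and housekeeping lists hold many genes bound only in Hep3B.

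Among the 11 liver-function lists, plasma proteins, clotting and complement factors and apolipoproteins had the lowest shared fractions. Among plasma proteins, 26 of 30 were bound in liver and 3 of the 26 also in Hep3B (11.5%, interval 4 to 29). The 3 were AMBP, the precursor of alpha-1-microglobulin and bikunin (summit −log10 p 16.8 in liver and 5.16 in Hep3B), LRG1 (13.1 and 6.16) and the paraoxonase PON3 (10.2 and 5.41). Bound only in liver were TTR, the carrier of thyroxine and of retinol-binding protein (28.8, the 99.9th percentile of liver peaks), the acute-phase protein CRP (22.4), FETUB (22), haptoglobin HP (17.5), haemopexin HPX (17.4) and RBP4 (13.6). ALB, which encodes albumin, had a liver peak at chr5:90460564-90461168 of mm10 with a summit −log10 p of 14 (67.3rd percentile) and its summit 63 bp from the TSS. In Hep3B the nearest summit to an ALB TSS was 37242 bp away. The corticosteroid-binding globulin gene SERPINA6 was the only plasma protein gene bound only in Hep3B (6.41), and its nearest liver summit lay 1252 bp from a TSS, just outside the window.

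Coagulation and complement genes followed the same division. Liver bound 24 of 27 coagulation genes, and 5 of the 24 were bound in Hep3B (20.8%, 9.24 to 40.5). These were prothrombin F2 (19.1 in liver and 6.26 in Hep3B), factor X F10 (10 and 8.06), kininogen KNG1 (10.3 and 4.69), protein S PROS1 (18.7 and 8.14) and VKORC1, which recycles vitamin K for the carboxylation of clotting factors (12.3 and 6.82). The KNG1 peak lay at the 2.96th percentile of Hep3B peaks. With Hep3B peaks held to the liver floor 1 of the 24 was shared (4.17%). The fibrinogen genes FGB, FGA and FGG were bound only in liver, at 29.5, 19.8 and 16.2, the first being the strongest promoter peak of all genes bound only in liver. Factors F7, F9, F11 and F12, plasminogen PLG and antithrombin SERPINC1 were also bound in liver alone, with values from 12.6 to 20. F5 and GGCX, the vitamin K-dependent carboxylase, were bound only in Hep3B (8.26 and 6.88). Their nearest liver summits lay 1306 and 2307 bp from a TSS. For complement, 13 of 18 genes were bound in liver and 3 of the 13 in Hep3B (23.1%, 8.18 to 50.3), namely C3, the central component (18.4 in liver and 8.36 in Hep3B), C2 (12 and 7.76) and C8G (13.7 and 8.17).

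Apolipoproteins and genes of lipoprotein assembly were bound in liver in 20 of 23 cases, and 5 of the 20 were shared (25%, 11.2 to 46.9). APOA2 (18 in liver and 6.29 in Hep3B), APOE (10.9 and 7.86), MTTP, which loads lipid onto APOB (15.6 and 7.67), the HDL receptor SCARB1 (13.3 and 5.93) and ANGPTL8 (8.83 and 5.07) carried a peak in both lists. APOC3 (24.9), hepatic lipase LIPC (21.9), APOA1 (18.2) and APOB (10.4) were bound only in liver. PLTP, a phospholipid transfer protein, was counted as unbound in both, with its nearest liver summit at 1002 bp. APOC1 and APOM were bound only in Hep3B (5.41 and 7.85).

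**Figure D2:**
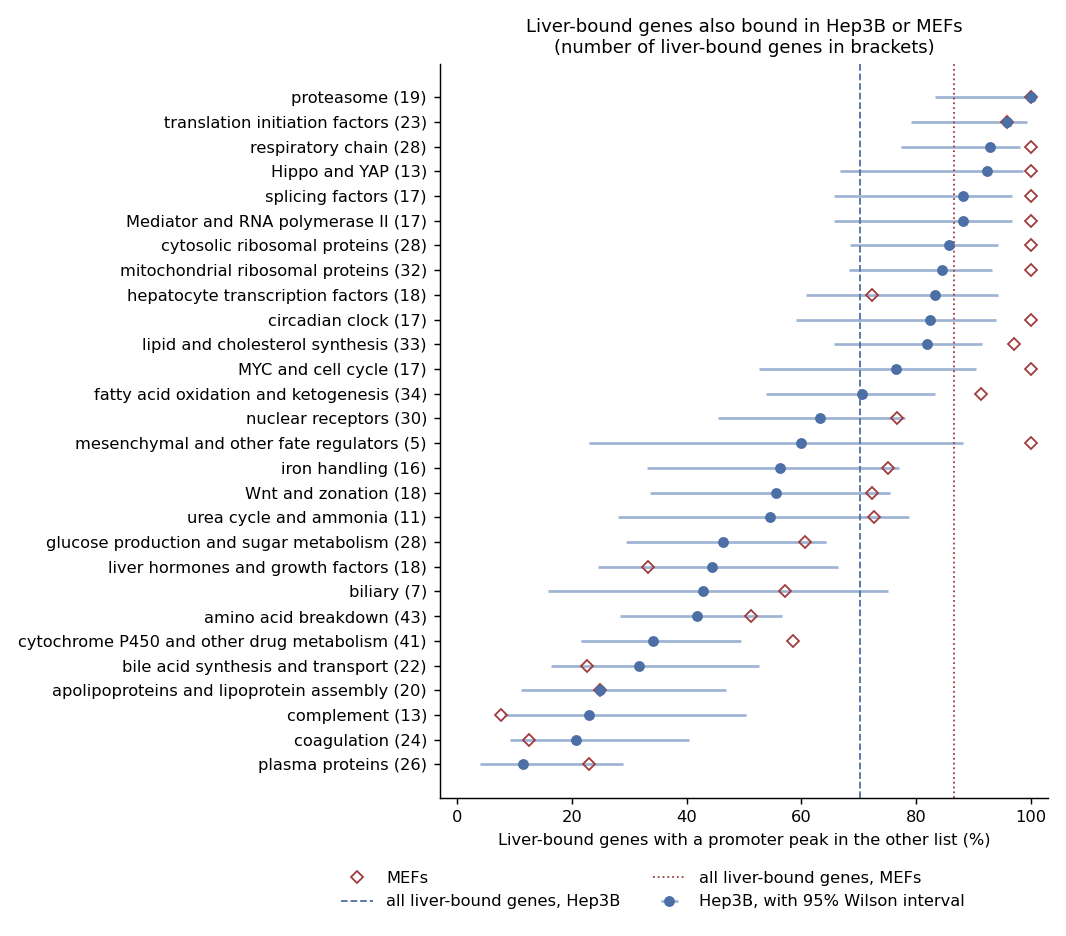
Percent of liver-bound genes of each list (x axis) that also carried a promoter peak in Hep3B (filled circles with 95% Wilson intervals over genes) or in MEFs (open diamonds), with the number of liver-bound genes in brackets. Dashed and dotted lines give the shares over all liver-bound genes, 70.2% for Hep3B and 86.5% for MEFs. Lists with at least 5 liver-bound genes are shown. The plasma protein, coagulation, complement and apolipoprotein lists sit between 11.5% and 25% in Hep3B.

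Metabolic functions ranged more widely. Bile acid synthesis and transport had 22 of 26 genes bound in liver and 7 of the 22 in Hep3B (31.8%, 16.4 to 52.7). CYP7A1, the rate-limiting enzyme of the classic pathway (18.3), CYP8B1 (14.2), CYP27A1 (15.8), the conjugating enzyme BAAT (19.1), the uptake transporter SLC10A1 (17.9), the bile salt export pump ABCB11 (14.2) and the bile acid sensor NR1H4 (20.8) were bound in liver alone. NR0B2, the corepressor SHP that acts downstream of NR1H4, had the highest liver value of any paired gene named here (34.7) and was bound in Hep3B as well (6.41). FGFR4, the receptor through which intestinal FGF19 acts on hepatocytes, was shared (9.53 and 6.7), and its coreceptor KLB was bound only in Hep3B (6.25), with a liver summit 1139 bp from a TSS. Also shared were AMACR (20.3 in liver and 7.68 in Hep3B), HSD3B7 (10.8 and 6.33) and SLC27A5 (19.6 and 6.19), genes of bile acid synthesis and conjugation. ATP8B1 (12.6 and 6.16) and ATP7B (9.76 and 6.82) completed the shared genes of this list. Cytochrome P450 and other drug metabolism genes were bound in liver in 41 of 55 cases, and 14 of the 41 were shared (34.1%, 21.6 to 49.5). NQO2 (23.1 and 8.8), CYB5R3 (22.5 and 7.02) and CYP1A1 (20.1 and 5.08) were shared. CYP17A1 (26.1), the efflux pump ABCG2 (23.6), ALDH2 (21.1), CYP1A2 (19.3), POR, which donates electrons to microsomal P450 enzymes (18.7), and CYP2E1 (15) were not.

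The nitrogen pathways were divided within themselves. Of 11 liver-bound urea cycle and ammonia genes, 6 were shared with Hep3B (54.5%, 28 to 78.7). The shared genes were CPS1, which makes carbamoyl phosphate (12.8 in liver and 7.58 in Hep3B), ASS1 (16.4 and 7.2), ASL (17.7 and 6.34), GLUL (15.4 and 6.14), GLUD1 (7.49 and 7.11) and SLC25A13 (13.4 and 6.88). The other cycle genes, OTC (17.1), ARG1 (15.3), NAGS (13.3) and the ornithine carrier SLC25A15 (17.7), were bound only in liver, as was GLS2 (9.72). Amino acid breakdown showed 18 of 43 shared (41.9%, 28.4 to 56.7). The alanine aminotransferase GPT was among the strongest in liver (30.7) and was shared (7.35), as were AASS (21.4 and 5.42), AHCY (18.8 and 7.44) and FAH (14.7 and 6.44). The tyrosine catabolism enzymes TAT (10.3), HPD (15.9) and HGD (21.7), which act upstream of FAH, were bound in liver alone, and so were MAT1A (21.4), CBS (20.8) and TDO2 (16.8). GSTZ1, which acts between HGD and FAH, was shared (15.9 in liver and 8.35 in Hep3B).

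In glucose and sugar metabolism 13 of 28 liver-bound genes were shared (46.4%, 29.5 to 64.2). The cytosolic gluconeogenic enzymes PCK1 (19.3) and FBP1 (17), the transporter SLC2A2 (13.4) and PKLR (9.98) were bound only in liver. KHK, which phosphorylates fructose (19.4 in liver and 5.74 in Hep3B), glycogen phosphorylase PYGL (18.6 and 4.99), the mitochondrial PCK2 (7.76 and 7.79), SLC37A4 (11.8 and 8.26) and the insulin receptor INSR (15.2 and 8.28) were shared. Hormones and growth factors of liver had 8 of 18 shared (44.4%, 24.6 to 66.3). Among them were IGFBP4 (22.4 and 5.36), GHR, the growth hormone receptor (16.7 and 6.66), and thrombopoietin THPO (15 and 5.05). PRLR (25.7), INHBC (21.4), IGFALS (18.1), IGFBP1 (15.9), AGT (14.2), FGF21 (11.7) and IGF1 (11.2) were bound in liver only.

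Fatty acid oxidation was the liver-function list with the highest shared fraction, 24 of 34 (70.6%, 53.8 to 83.2), close to the share over all liver-bound genes. With Hep3B peaks held to the liver floor it was 13 of 34 (38.2%), below urea cycle and ammonia at 5 of 11 (45.5%). The carnitine shuttle genes CPT1A (16 and 7.67) and SLC25A20 (15.8 and 5.65), ACADM (20 and 5.63), HADHA and HADHB, which are counted from the same peak in each list (12.7 and 5.28), and the peroxisomal HACL1 (18.8 and 9.91) were shared. The exceptions included the ketone body enzyme BDH1 (18.6), ACSL1 (23.4) and PPARA, the nuclear receptor that controls this pathway (11.9), all bound only in liver. Lipid and cholesterol synthesis, which all growing cells carry out and which was not counted as a liver function, had 27 of 33 shared (81.8%, 65.6 to 91.4). It included the desaturase FADS2 (23.7 and 8.34), HMGCS1 (12.1 and 8.96), SREBF2 (10.4 and 7.53) and ACLY (16.2 and 8.72). The Hep3B value of FADS2 belongs to a peak also counted for FADS1, with its summit 988 bp from a FADS2 TSS. Another Hep3B summit lay 365 bp from a FADS2 TSS. THRSP, GPAM, AGPAT2, ELOVL6, LPIN1 and DGAT2 were bound in liver alone, with values from 9.85 to 19.8. Iron handling (9 of 16) and the circadian clock (14 of 17) completed the metabolic lists, and the hepcidin gene HAMP was bound in neither.

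**Figure D3:**
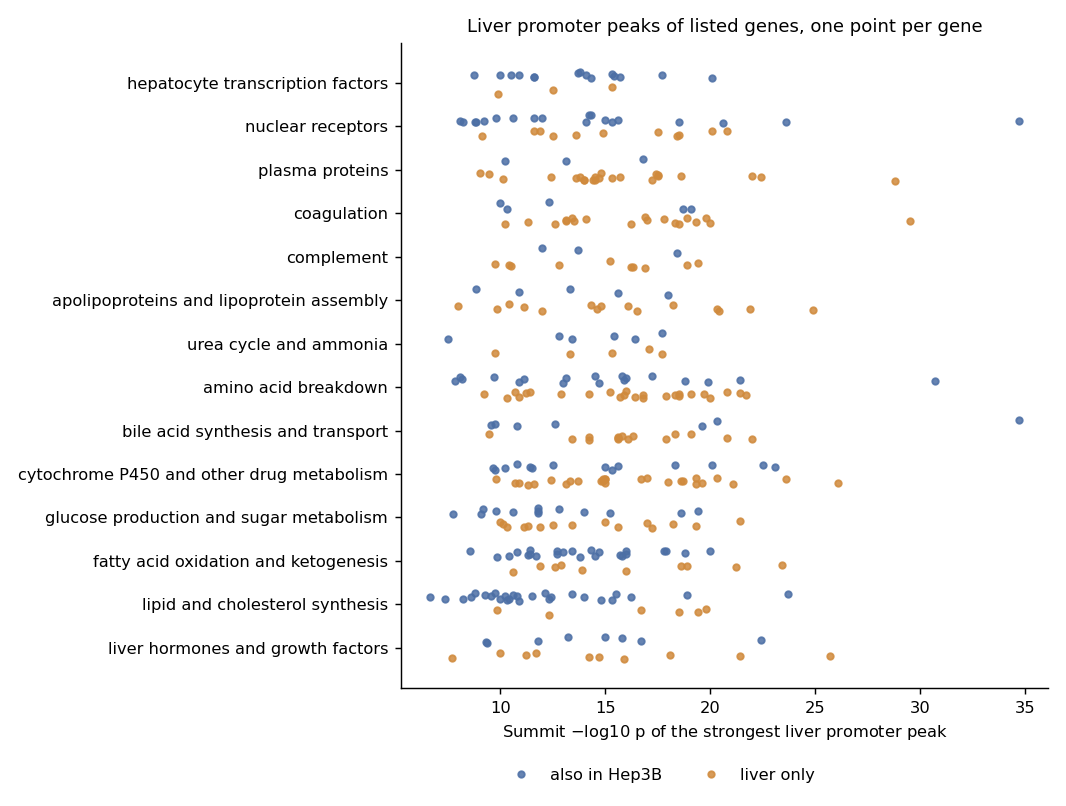
Summit −log10 p of the strongest liver promoter peak (x axis) of each liver-bound gene in 14 lists (y axis), with blue for genes also bound in Hep3B and orange for genes bound only in liver. Both colours span most of the range, and strong liver peaks such as FGB (29.5) and TTR (28.8) are orange while NR0B2 (34.7) and GPT (30.7) are blue.

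Of 22 genes for hepatocyte transcription factors, 18 were bound in liver and 15 of the 18 in Hep3B (83.3%, 60.8 to 94.2). The share over all liver-bound genes, 70.2%, lies within that interval. The pioneer factors FOXA1 (11.6 in liver and 7.23 in Hep3B), FOXA2 (17.7 and 6.25) and FOXA3 (10.5 and 8.92), CEBPA (10 and 8.7), ONECUT1 (10.9 and 5.21), HHEX (11.6 and 5.64), GATA4 (13.8 and 5.16), TBX3 (15.7 and 7.02) and NR5A2 (14.3 and 6.14) were shared. HNF4A (12.5), a nuclear receptor central to hepatocyte identity, was among the 3 bound in liver alone. The nearest Hep3B summit lay 14928 bp from an HNF4A TSS. ATF5, CEBPB, CREB3L3 and ONECUT2 were bound only in Hep3B, and for the first, the second and the last a liver summit lay between 1078 and 1270 bp from a TSS. PROX1 itself was shared (13.7 and 5.85), in a line that also carries PROX1 coding sequence from the lentivirus.

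Among 45 nuclear receptor genes, 30 were bound in liver and 19 of the 30 in Hep3B (63.3%, 45.5 to 78.1). The receptors for bile acids and foreign compounds NR1H4 (20.8), NR1I3 (18.5) and NR1I2 (13.6), the common partner RXRA (17.5), and ESR1 (18.4), PPARA (11.9) and HNF4A were bound only in liver. Shared receptors included PPARG, a regulator of adipocyte fate (23.6 and 5.31), NR6A1 (20.6 and 8.88), THRB (18.5 and 5.81), ESRRA (15.3 and 11), NR1D1 (15 and 9.21), NR3C1 (14.1 and 5.62) and NR1H3 (11.6 and 7.72). Within mouse, the strongest promoter peaks of NR6A1 in liver and MEFs lay at different TSSs (chr2:38784069-38785285 and chr2:38926110-38927381 of mm10). The same held for PPARG and SCARB1. RXRB, NR1H2, NR2C2, NR2F1, NR2F6 and THRA were bound only in Hep3B.

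Lists of growth and fate regulators are read beside the shares over all paired genes, 48.9% bound in Hep3B, 32.6% in liver and 68.9% in MEFs. For MYC and cell cycle genes, Hep3B bound 39 of 51 (76.5%, beside 79.6% of housekeeping genes), liver 17 (33.3%) and MEFs all 51, with 26 bound only in Hep3B and 4 only in liver. MYC was shared (15.3 in liver and 8.59 in Hep3B), while CDK1, CDK2, CDK4, CCNB1, E2F1, PCNA and MCM3 to MCM7, genes of replication and mitosis, were bound only in Hep3B. Hippo and YAP genes were bound in Hep3B in 23 of 24 cases (95.8%), in liver in 13 (54.2%) and in MEFs in 22 (91.7%), and YAP1, the effector of the pathway, was the 1 exception, bound in liver (13.1) and not in Hep3B, where the nearest summit was 31984 bp away. Of 20 fetal liver and oncofetal genes, Hep3B bound 9 (45%), which is no more than its share over all genes, MEFs bound 13 and liver bound 1, IGF2. The 9 were EPCAM, GPC3, IGF2BP2, IGF2BP3, LIN28B, MDK, MEST, PEG3 and PLAG1, with values from 4.77 to 7.8, on the scale of the Hep3B list. AFP, the fetal albumin homologue and a tumour marker, was bound in neither. Of 31 Wnt and zonation genes liver bound 18 (58.1%) and Hep3B 15 (48.4%), with 10 shared, 8 only in liver (among them CTNNB1, LGR5, RNF43, LRP5 and NOTUM) and 5 only in Hep3B.

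Regulators of mesenchymal and other non-hepatic fates were bound in 5 of 38 cases in liver (13.2%), 7 in Hep3B (18.4%) and 22 in MEFs (57.9%). PPARG, SNAI2 (15 in liver and 4.96 in Hep3B) and CEBPD (12.8 and 4.65) were shared, EBF2 (8.97) and PAX5 (9.17) were bound only in liver, and SNAI1, PAX6, GATA2 and TCF7 only in Hep3B. PRRX1, a mesenchymal regulator, was bound in neither list at its promoter, with the nearest liver summit 3221 bp from a TSS. Of 23 genes marking biliary cells, liver bound 7 (30.4%) and Hep3B 10 (43.5%), beside 32.6% and 48.9% of all paired genes. They gave 3 shared, 4 liver only and 7 Hep3B only, and the last included SOX9 (8.28) and KRT19 (5.66). A liver summit lay 1236 bp from a SOX9 TSS, just outside the window.

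The label of the liver preparation was set against genes that mark its other cells. None of 8 Kupffer cell genes was bound in liver or Hep3B. Of 8 sinusoidal endothelial genes FCGR2B was bound in liver (11.3), none of 8 stellate cell genes was bound in liver, and 2 of 8 cholangiocyte genes were, SPP1 among them. No expression was measured, so these counts describe promoter peaks and not the cells present. Hep3B bound COL1A1, PDGFRB and RGS5 of the stellate list (3 of 8, 37.5%). It also bound KRT19, EPCAM, SOX9 and MUC1 of the cholangiocyte list (4 of 8, 50%). Over all paired genes liver bound 32.6% and Hep3B 48.9%.

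MEFs provided a list that the classes did not use. They share species with the liver list, and antibody tag and overexpression with the Hep3B list. MEFs bound 10851 of the paired genes (68.9%), including 95.9% of genes bound in both liver and Hep3B (95.2 to 96.5), 91.3% of those bound only in Hep3B (90.4 to 92.2), 64.4% of those bound only in liver (62 to 66.8) and 41.1% of those bound in neither (39.9 to 42.3). Liver-function genes bound only in liver were bound in MEFs in 47 of 174 cases (27%, 21 to 34.1). Among all 280 liver-bound liver-function genes, MEFs bound 45.7%, against the 37.9% in Hep3B. Over all liver-bound genes MEFs bound 86.5% and Hep3B 70.2%, from lists of 40531 and 14369 peaks. For several lists the order was the other way round. Hep3B exceeded MEFs for coagulation (20.8% against 12.5%), complement (23.1% against 7.69%), bile acids (31.8% against 22.7%), liver hormones (44.4% against 33.3%) and hepatocyte transcription factors (83.3% against 72.2%). Plasma proteins did not share this order (11.5% in Hep3B and 23.1% in MEFs), and apolipoproteins gave 25% in both. In the remaining liver-function lists MEFs exceeded Hep3B. Intervals are wide at these list sizes, and these differences were not tested.

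A small group of genes was bound in liver and Hep3B and not in MEFs. It held 146 paired genes (0.928% of all, and 4.06% of the shared genes, interval 3.46 to 4.76). Among shared liver-function genes the fraction was 25 of 106 (23.6%, 16.5 to 32.5), and among shared housekeeping genes 1 of 148, EIF4EBP3. The order turns with the denominator, as MEFs bound 45.7% of liver-bound liver-function genes and 86.5% of all liver-bound genes. Of liver-bound genes that MEFs did not bind, Hep3B bound 25 of 152 in the liver-function lists (16.4%, 11.4 to 23.2) and 146 of 690 over all genes (21.2%, 18.3 to 24.4). The 25 come from all 11 liver-function lists. They comprise the secreted proteins AMBP, LRG1, PON3, F2, F10, KNG1, C2, C3, APOA2, APOE, ANGPTL8, SELENOP, THPO and INHBE, the bile acid genes NR0B2, FGFR4 and SLC27A5, and the metabolic genes CPS1, AASS, KMO, CYP1A1, UGT2A3, EHHADH, PCK2 and FOXO1. NR5A2, FZD8 and PROX1 were of the same kind in the lists of regulators. In liver and in neither culture were 127 liver-function genes and 544 genes in all.

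The classes also differed in promoter sequence, which the selection did not use. CpG ratio is the observed number of CG dinucleotides over that expected from base composition, in 1000 bp around the outermost TSS, and promoters with a ratio of at least 0.6 and at least 50% GC were called CpG-rich. In the human genome 80.3% of shared genes (78.9 to 81.5), 79.8% of Hep3B-only genes (78.5 to 81) and 52.5% of liver-only genes (50 to 55) had CpG-rich promoters, beside 62.9% of all paired genes. In the mouse genome the order was the same, with 75.3%, 74.8% and 43.2%. Liver-function genes bound only in liver stood lower, at 24.1% in human (18.4 to 31) and 13.2% in mouse (8.97 to 19.1). Shared liver-function genes had 61.3% in human (51.8 to 70).

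Liver-bound genes were also split by this property, whose part in the shared fractions was not tested. Where the human promoter was not CpG-rich, Hep3B bound 41 of 173 liver-bound liver-function genes (23.7%, 18 to 30.6) and 53% of the other liver-bound genes (50.2 to 55.7). Where it was CpG-rich, Hep3B bound 65 of 107 (60.7%, 51.3 to 69.5) and 78.8% (77.4 to 80.1). Lists differed in makeup. Only 2 of the 26 liver-bound plasma protein genes and 1 of the 24 coagulation genes had a CpG-rich promoter, against 24 of 34 in fatty acid oxidation, where 19 of the 24 were shared. Among CpG-rich promoters the lists with few shared genes overall had too few members to set against the others. Of these, 1 of 2 was shared for plasma proteins, 1 of 1 for both coagulation and complement, and 0 of 3 for apolipoproteins. Bile acids had 4 of 9 and drug metabolism 8 of 16. In the fifth of liver-bound genes with the lowest CpG ratio, MEFs bound 19.9% of liver-function genes and Hep3B 18.5%, whereas of the other genes MEFs bound 67.4% and Hep3B 46%.

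**Figure D4:**
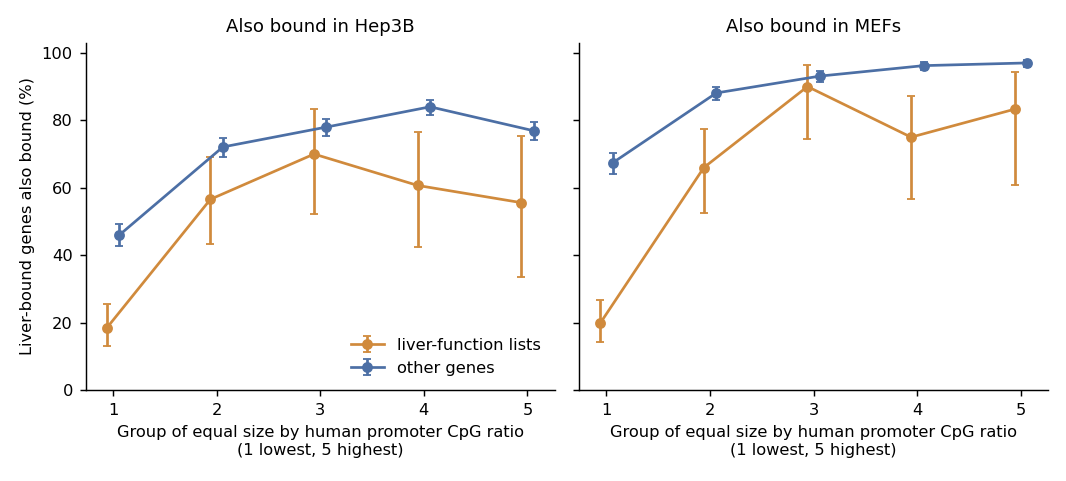
Percent of liver-bound genes also bound in Hep3B (left) or MEFs (right) in 5 groups of equal size by CpG ratio of the human promoter, for liver-function genes (orange) and other genes (blue), with 95% Wilson intervals over genes. In the lowest group 18.5% of liver-function genes and 46% of other genes were also bound in Hep3B.

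Short motifs within 50 bp of liver summits were counted on both strands. AGGTCA was present in 8.53% of windows of shared genes (7.63 to 9.53) and 12.3% of those of liver-only genes (10.8 to 14.1), beside 3.86% of equal windows at all mouse gene starts. The liver-function genes gave 11.4% when shared (6.66 to 18.9) and 13.4% when liver only (9.08 to 19.3). TTGCNNAA, written for C/EBP factors, was present in 2.43% of windows at mouse gene starts, 5.21% of shared and 7.38% of liver-only windows, and in 3.81% and 11.6% of those of shared and liver-only liver-function genes (1.49 to 9.39 and 7.65 to 17.3). GGGCGG, the GC box, was in 25.1% of shared and 18.3% of liver-only windows, beside 35% at mouse gene starts. At Hep3B summits AGGTCA was found in 3.1% of windows of shared genes (2.56 to 3.74) and the GC box in 48.8%, against 3.94% and 35.6% at all human gene starts. Hep3B summits of Hep3B-only genes gave nearly the same values, 3.13% and 48.9%. These windows differ in position and base composition. Median summit distance to the TSS was 196 bp for shared and 190 bp for liver-only genes in liver. In Hep3B it was 97 bp for shared and 96 bp for Hep3B-only genes. Median CG count was 5 at shared and 3 at liver-only liver summits and 9 at Hep3B summits. At gene starts it was 7 in mouse and 8 in human. The part of these differences in the motif shares was not tested. A match shows that these letters occur in the window and nothing about which protein was bound.

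Liver peak strength, a quantity of the same contrast as the selection, is given as a description. Liver-bound genes were split into 4 groups of equal size by summit −log10 p. In the weakest group (6.15 to 9.36) 79.3% were shared, and in the following groups 73.8%, 69.9% and 57.7%. The strongest group (13.4 to 34.7) contained 170 of the 280 liver-function genes, and 50 of the 170 were shared (29.4%). Among the other genes of that group 62% were shared, and among housekeeping genes 20 of 21. Median liver −log10 p was 10.7 for shared and 11.9 for liver-only genes. In Hep3B it was 7.07 for shared and 6.78 for Hep3B-only genes. The 10 liver-only genes with the highest liver values were FGB, TTR, PCTP, FGF1, CYP17A1, GJB1, PRLR, GPX7, FAM25C and DDC. The 10 Hep3B-only genes with the highest Hep3B values were SF3B2 (11.5), GPSM3, DRAP1, NIFK and TSN, which are counted from the same peak, DNAJC21, DAXX, SPAG4, RAP2B and B9D1, among them a splicing factor and regulators of transcription and chromatin. High in both lists were SKIL, a corepressor of TGF-beta signalling (24.3 and 10.1), SLC25A42, NQO2, NR6A1, MAPK14, TMC7, ZFYVE1, GUCD1, TMBIM6 and HSDL2.

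**Figure D5:**
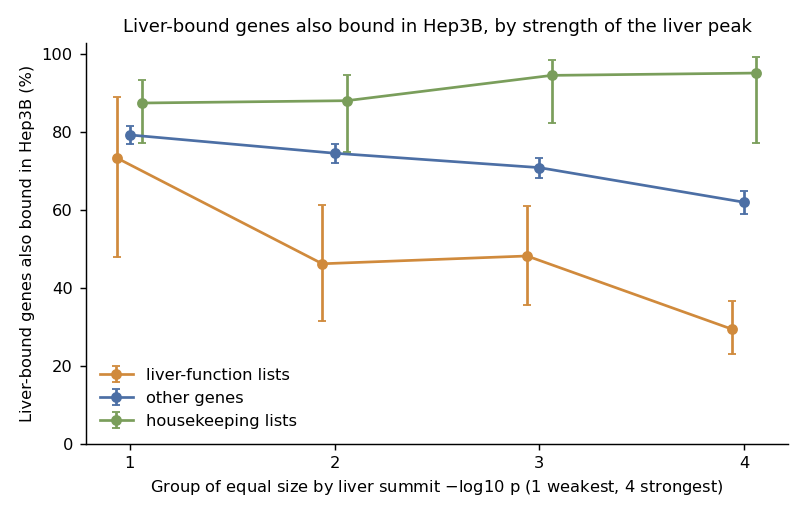
Percent of liver-bound genes also bound in Hep3B (y axis) in 4 groups of equal size by liver summit −log10 p (x axis), for liver-function genes, all other genes and, within the latter, housekeeping genes. Bars are 95% Wilson intervals over genes. From the weakest to the strongest group the share falls from 73.3% to 29.4% in liver-function genes and from 79.3% to 62% in other genes.

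Distances beyond the window are given as a description, since by the selection no liver-only gene has a Hep3B summit within 1 kb. The median distance from a liver-only gene's TSS to the nearest Hep3B summit was 43262 bp, and 3.47% of these genes had a summit within 2000 bp and 17.3% within 10 kb. Liver-function genes bound only in liver gave 37388 bp, 2.87% and 14.9%. Genes bound in neither list lay farther from Hep3B summits, with a median of 62925 bp, 2.06% within 2000 bp and 13.6% within 10 kb. In the opposite direction, 9.45% of Hep3B-only genes had a liver summit within 2000 bp and 31.6% within 10 kb. Around the limit of the window, 106 genes had their nearest liver summit between 900 and 1000 bp and 102 between 1001 and 1100 bp. For Hep3B summits these counts were 43 and 32. ZMYM2 and CAMK1D, at 1000 bp in liver, lay just inside, and ABHD17C and CRLF3, at 1001 bp, just outside.

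By human chromosome, the shared fraction of liver-bound genes lay between 58.3% and 79.8% on the autosomes. On the X chromosome it was 28 of 91 (30.8%, 22.2 to 40.9). X-linked genes were bound less often than autosomal genes in both lists, at 15.8% in liver, where the autosomes ranged from 25.1% to 39.8%, and 16.5% in Hep3B, where they ranged from 37.5% to 57.4%.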

How the data were processed

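Peak lists from CUT&RUN of 22 samples in 6 groups were used, 1 list each for liver, MEFs and Hep3B. Groups were taken from the sample labels. Per their methods and the submitters' processing notes, the authors trimmed reads with Trim Galore (0.6.6), aligned them with Bowtie2 (2.4.2) to mm10 or hg38 and called consensus peaks over the antibody samples of a group with Genrich (0.6.1), leaving out mitochondrial reads. The study describes its binding sites as found relative to IgG, and whether IgG was a control in the peak calling is not given in the sources used here.

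The deposited score is capped by the caller (99.9% of liver and 24.7% of Hep3B peaks at the cap) and was not used. The deposited signal, an area summed by the caller over each peak's significance curve, served as a floor only. The deposited −log10 p and −log10 q belong to the summit. The authors applied no normalization from list to list. The lists hold 50159 (liver), 40531 (MEF) and 14369 (Hep3B) peaks, with a lowest −log10 q of 4.03, 1.16 and 1.22. Depth per sample is unknown.

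TSSs of protein-coding transcripts came from GENCODE M21 and GENCODE 44, without the mitochondrial chromosome. Of 21829 mouse and 19663 human symbols, 15738 matched. Genes without a matching symbol, 693 bound in liver and 1051 in Hep3B, were left out, so families whose names differ between species are missing. When a gene had several peaks in its window, the one with the highest summit −log10 p was used. CpG content was read around the outermost TSS of each gene, which need not be the bound TSS. Mouse sequence came from the RefSeq GRCm38 assembly, which has the coordinates of mm10. Computation used Python 3.11.15, pandas 2.3.3, statsmodels 0.14.6 and pysam 0.24.0, and the assignment of summits to genes was tested on simulated data. No test between groups was run, since each list is a single consensus.

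Members and lists were chosen with earlier results of these data known. Genes were named as members of the lists (those highest in liver and those differing from the rest), as the 10 highest of each class, as genes that the study names, or as genes nearest to the 1000 bp limit. Some genes that meet these rules are counted and not reported by name here. Genes bound in liver and Hep3B and not in MEFs were picked out after their values were seen. Alternatives were windows of 500 and 2000 bp, the top 14369 peaks of each list, q below 0.05 or 0.01, an area floor of 500 in both lists, the outermost TSS alone, any base of a peak in the window, and strict capitalisation of symbols. The last alternative, leaving out genes that share their peak with another gene, was chosen after seeing the data.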

Additional observations from a re-analysis of the deposited data

How the results depend on the processing

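Under each of the 10 alternatives the shared fraction stayed lowest for liver-function genes and highest for housekeeping genes, with all liver-bound genes between. With the same number of top peaks per list, 492 genes were bound in both, 417 only in liver and 7198 only in Hep3B, and the shared fraction was 54.1% over all and 29.9% over liver-function genes. The liver list then keeps fewer peaks, so fewer liver-bound genes remain. With the raised area floor, which leaves 6239 Hep3B peaks, the counts were 2375, 2750 and 2361 and the fractions 46.3% and 21.8%. By list, the fraction at this floor was 3.85% for plasma proteins, 4.17% for coagulation, 38.2% for fatty acid oxidation and 40% for nuclear receptors. Complement stayed at 23.1%, above bile acids (18.2%), drug metabolism (22%), glucose and sugar metabolism (21.4%) and liver hormones (22.2%). The fraction over all liver-bound genes was 68.6% with summits within 500 bp, 65.6% with q below 0.01, 63.2% with the outermost TSS and 66.1% without genes that share a peak. Of 60 values under alternatives, 44 moved by less than their counting interval or 1.5 times and 16 by more. The 44 include all values under q below 0.05 and under strict capitalisation, which changed the lists little. The former left 7688 of 7690 genes bound in Hep3B, and the latter 15734 of 15738 paired genes. No replicate could be left out, and sequencing depth cannot be weighed, because only consensus lists were used. No paired analysis was possible because each list is a single consensus over its samples.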
